A study of Mus musculus with 6 samples.

Results

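The 10 genes described here encode the activin pathway that acts through ALK7, and were chosen with earlier results of these data known. They are the receptor gene Acvr1c, the ligand genes Inhba, Inhbb and Gdf3, and the type II receptor genes Acvr2a and Acvr2b. The others are the antagonist genes Fst and Fstl3 and the signal genes Smad3 and Smad7. All 10 were found among the 24539 genes of the count table, and all 10 passed the filter on low counts that kept 14322 genes for testing. The RNA came from epididymal white adipose tissue, the fat pad beside the epididymis, of 3 mice labelled Jmjd8-KO and 3 labelled WT. Both groups were C57BL/6 mice kept on a high-fat diet, with no other treatment. Age, length of the diet and the form of the Jmjd8 allele are not stated in the labels. The design compares the genotypes, with 1 library per mouse.

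Activins are dimers of inhibin beta chains. They bind a type II receptor, which then activates a type I receptor kinase. ALK7 is the type I receptor typical of fat cells and responds to activin B and GDF3, while activin A acts mainly through the related ALK4. The active type I receptor phosphorylates SMAD2 and SMAD3, which enter the nucleus with SMAD4, and SMAD7 blocks this step. Follistatin and FSTL3 hold activins outside the cell. In mice, ALK7 is known to restrain the breakdown of stored fat in white adipocytes.

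Libraries held 17598696 to 20598473 counts. Values below are CPM, counts scaled to library size and, by TMM, to library composition, unless RPKM is named. Jmjd8 was at 46.5 ± 9.81 CPM in the Jmjd8-KO mice and at 113 ± 2.34 CPM in the WT mice (SD, n = 3 each; log2 fold change -1.28, adjusted p = 0.0193). In each group 1 library stood apart. WT replicate 1 had a summed level of 860 CPM over 8 neuronal markers, against 82.7 to 129 CPM in the other libraries, and Jmjd8-KO replicate 2 differed from the other Jmjd8-KO libraries by a chi-square of 45.1 to 48.3 per degree of freedom, against 3.07 between those libraries. Of the 8 adipocyte markers all were measured and none was at 0. Markers of the epididymal epithelium were low, with 5 of 8 at 0 in all libraries, and summed to 0.101 to 0.349 CPM in Jmjd8-KO and 0.857 to 1.01 CPM in WT. The 1 that was tested, Crisp1, had 0 counts in each Jmjd8-KO library and 12, 16 and 10 in WT (adjusted p = 0.0364). Mesothelial markers summed to 313 to 354 CPM in Jmjd8-KO and 190 to 249 CPM in WT, and 2 of 8 rose. DESeq2 and limma-voom each called 7 of them, and edgeR called 6 with Jmjd8-KO replicate 2 left out and 0 with WT replicate 1 left out. The highest WT sum was that of WT replicate 1, where the marker Gpm6a was at 115 CPM, against 30.6 to 34.8 CPM in the other WT mice. Of 8 progenitor and fibroblast markers and 8 endothelial markers 0 passed in edgeR (3 and 1 at an unadjusted p under 0.05). DESeq2 called 1 progenitor marker higher, 1 lower and 1 endothelial marker higher, and limma-voom called 2, 2 and 0. Over all tested genes the shares were 2.12% in edgeR, 19.1% at an unadjusted p under 0.05, 7.43% in DESeq2 and 14.2% in limma-voom. In edgeR they were 9.34% without Jmjd8-KO replicate 2 and 0.118% without WT replicate 1.

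Of the 10 genes, 1 passed the test: Acvr1c, which rose in Jmjd8-KO fat. Among all tested genes 2.12% passed, 0.789% as higher and 1.33% as lower (113 and 191 genes, against 84 and 288 with scaling by library size alone). Passing means an adjusted p under 0.05 in edgeR's quasi-likelihood test. Without Jmjd8-KO replicate 2, 2 of the 10 passed (Acvr1c higher, Acvr2a lower), where 9.34% of tested genes did, and without WT replicate 1, 0 of 10 passed, where 0.118% did and 3 of the 10 had an unadjusted p under 0.05, as did 13.2% of tested genes. With all mice, 4 of the 10 and 19.1% of tested genes had an unadjusted p under 0.05. DESeq2 and limma-voom each called 2 of the 10, and they called 7.43% and 14.2% of all genes, so list counts by these tools below read against those shares. The median log2 fold change of the 10 genes was -0.12, against -0.0056 over all tested genes. Of the 10 genes, 4 had groups that did not overlap (Acvr1c higher; Gdf3, Acvr2a and Fst lower in Jmjd8-KO), a pattern seen in 29.5% of tested genes (2007 genes higher and 2214 lower of 14322). The members were picked with earlier results of these data in view, Acvr1c among them, so these counts are a description.

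The sequences around the 2 annotated starts of Acvr1c are shown because this gene was the 1 that passed. Whether the counted gene model includes transcripts from both starts is not known. The gene (ENSMUSG00000026834.13) lies on the minus strand of chromosome 2 from 58267453 to 58357895 in GRCm38, the assembly of mm10, with 5 transcripts in GENCODE release M21. RefSeq places the starts 32951 bases apart. Each window runs from 250 bases before a start to 50 bases after it, is read 5′ to 3′ on the minus strand (RefSeq, GRCm38.p6), and spans chr2:58357709-58358008 for the upstream start and chr2:58324758-58325057 for the downstream start. Capitals mark GC boxes, the letters GGGCGG or their reverse complement, which the factor SP1 is known to bind.
upstream start: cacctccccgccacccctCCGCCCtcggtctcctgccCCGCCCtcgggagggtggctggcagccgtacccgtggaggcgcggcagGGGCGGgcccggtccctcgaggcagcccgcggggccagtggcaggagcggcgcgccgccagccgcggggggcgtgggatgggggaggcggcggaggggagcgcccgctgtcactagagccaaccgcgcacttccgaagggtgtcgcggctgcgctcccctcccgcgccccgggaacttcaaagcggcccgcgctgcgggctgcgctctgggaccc
downstream start: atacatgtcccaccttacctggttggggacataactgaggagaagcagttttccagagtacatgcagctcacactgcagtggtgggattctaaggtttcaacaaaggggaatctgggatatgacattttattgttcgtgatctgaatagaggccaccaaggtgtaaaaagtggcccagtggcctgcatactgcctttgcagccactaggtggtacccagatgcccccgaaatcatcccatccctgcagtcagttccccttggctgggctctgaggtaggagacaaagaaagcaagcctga
The upstream window was 79.0% G and C with 39 CpG pairs, and the downstream window 50.3% with 2, against medians of 52.7% and 7 over 32851 RefSeq windows of this length. The upstream window held 3 GC boxes and the downstream window 0, on either strand, and 35.7% of all windows held at least 1. The SMAD box CAGAC, on either strand, was in neither window and in 49.6% of all windows. The C/EBP letters TTGCNNAA were in neither window and in 10.8% of all windows. No read-level data were used, so transcripts from the 2 starts cannot be told apart.

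Acvr1c, the ALK7 gene, was at 135, 115 and 119 CPM in Jmjd8-KO replicates 1, 2 and 3 and at 72.8, 85.2 and 73.5 CPM in the WT mice. Every Jmjd8-KO mouse was above every WT mouse, and the gap between the groups was wider than the spread within either. The means were 123 ± 10.5 and 77.2 ± 6.99 CPM (SD, n = 3 each), a 1.59-fold difference (log2 fold change 0.67, SE 0.0983, 95% interval 0.44 to 0.90, adjusted p = 0.0297 by edgeR's quasi-likelihood test). With 1 mouse left out at a time the log2 fold change was 0.60 to 0.74, but the call held only without Jmjd8-KO replicate 2 (adjusted p = 0.0101). Without Jmjd8-KO replicate 1 or 3 the adjusted p was 0.121 and 0.0945, and without WT replicate 1, 2 or 3 it was 0.101, 0.0961 and 0.172. Gm13544, a gene annotated antisense to Acvr1c, had 33, 27 and 19 counts in the Jmjd8-KO mice and 9, 17 and 12 in the WT mice. Acvr1c had 1458 to 2554 counts. Without a stated strand setting, the reads of Gm13544 and Acvr1c cannot be told apart in the overlap. What part such reads had in the level of Acvr1c was not tested. A processed pseudogene on the plus strand, Gm13545, also overlaps the Acvr1c locus.

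**Figure D1:**
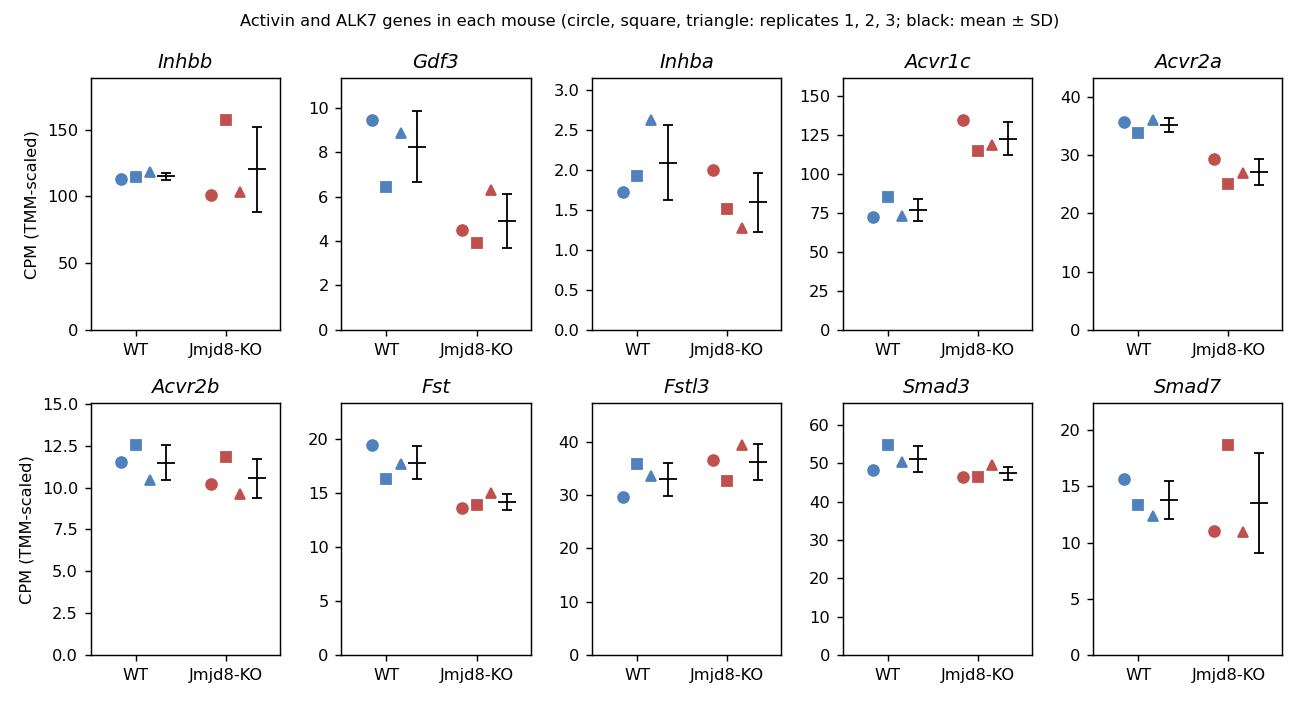
CPM of each of the 10 genes by mouse, with a linear axis from 0 in every panel; circles, squares and triangles are replicates 1, 2 and 3, and black bars are mean ± SD of 3 mice. Acvr1c sits at 115 to 135 CPM in Jmjd8-KO against 72.8 to 85.2 CPM in WT, while Inhbb and Smad7 each have 1 high Jmjd8-KO value, that of replicate 2.

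Adipocytes are the cells of fat that carry ALK7, so the levels of their markers stand beside this result. The summed level of 8 adipocyte markers was 23605 to 27883 CPM in the Jmjd8-KO mice and 20801 to 22274 CPM in the WT mice, without overlap, and 7 of the 8 had a positive log2 fold change, although 0 passed in edgeR (median 0.37; 7 at an unadjusted p under 0.05, against 19.1% of tested genes). DESeq2, which called 7.43% of all genes, called 5 of them higher. Limma-voom, which called 14.2%, called 6 higher and 1 lower. In edgeR 4 were higher without Jmjd8-KO replicate 2. Per 1000 CPM of these markers, Acvr1c was at 5.63, 4.12 and 5.04 CPM in Jmjd8-KO replicates 1, 2 and 3 and at 3.50, 3.83 and 3.30 CPM in WT. The groups of this ratio did not overlap, and its log2 difference was 0.47 (exact two-sided permutation test, p = 0.1, the smallest that 3 against 3 mice can give). With the mean of the markers' log2 CPM in place of the sum, the difference was 0.31. In that version the groups overlapped, with Jmjd8-KO replicate 2 slightly below WT replicate 2. What part adipocyte content had in the level of Acvr1c was not tested beyond this ratio. In bulk tissue, fewer cells of a type and less RNA per cell cannot be told apart.

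The 5 genes whose log2 CPM followed Acvr1c most closely over the 6 mice were Fam214a, Atxn7, Zbtb5, Pdzd2 and Rras, with Pearson's r of 0.989 to 0.996. They were picked from 9502 genes with a mean of at least 10 CPM, of which 392 had an r above 0.9. The mice share 1 group difference, which any gene that differs between the genotypes also follows, so the ranking is a description. Of the 5, Fam214a (log2 fold change 0.82, adjusted p = 0.0193), Pdzd2 (0.53, adjusted p = 0.0317) and Zbtb5 (0.54, adjusted p = 0.0430) passed, while Atxn7 (0.26, adjusted p = 0.133) and Rras (0.16, adjusted p = 0.252) did not.

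None of the 3 ligand genes passed. Inhbb, which encodes the chain of activin B, was at 101, 157 and 103 CPM in Jmjd8-KO replicates 1, 2 and 3 and at 113, 115 and 118 CPM in WT. Jmjd8-KO replicate 2 was above all WT mice and the other Jmjd8-KO mice were below them, so the WT values lay inside the Jmjd8-KO range. The log2 fold change was 0.063 (SE 0.171, 95% interval -0.34 to 0.47, adjusted p = 0.855). Without Jmjd8-KO replicate 2 it was -0.17 (SE 0.0425, adjusted p = 0.0552), and without both that library and WT replicate 1 it was -0.19 (adjusted p = 0.0169). The fit without both libraries called 1444 genes higher and 1389 lower of 14287 tested.

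Gdf3, a ligand of ALK7 that macrophages of mouse fat are known to make, was at 4.48, 3.92 and 6.28 CPM in the Jmjd8-KO mice and 9.43, 6.44 and 8.87 CPM in the WT mice, from 78 to 191 counts. The groups did not overlap, but WT replicate 2 and Jmjd8-KO replicate 3 nearly met. Its mean was 4.89 ± 1.23 against 8.25 ± 1.59 CPM (SD, n = 3 each), with a log2 fold change of -0.75 (SE 0.233, 95% interval -1.31 to -0.20) that did not pass (adjusted p = 0.149). Among 10 macrophage markers 7 fell and the other 3 did not pass, with a median log2 fold change of -0.65. Their summed level was 2044 to 2523 CPM in the Jmjd8-KO mice and 3288 to 3398 CPM in the WT mice, and no marker was at 0. Without WT replicate 1, 0 of these markers passed (8 at an unadjusted p under 0.05, against 13.2% of tested genes), and without Jmjd8-KO replicate 2, 8 fell. Per 1000 CPM of macrophage markers Gdf3 was at 1.95, 1.93 and 2.50 CPM in the Jmjd8-KO mice and 2.82, 1.97 and 2.62 CPM in the WT mice. What part macrophage content had in the level of Gdf3 was not tested beyond this ratio. The ratios overlapped, with a log2 difference of -0.21 (exact two-sided permutation test, p = 0.2; the smallest possible is 0.1).

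Inhba, the gene of the activin A chain, was the least abundant of the 10, with 22 to 52 counts per library. It was at 2.00, 1.51 and 1.28 CPM in the Jmjd8-KO mice and 1.73, 1.93 and 2.62 CPM in the WT mice, and the groups overlapped. The log2 fold change was -0.39 (SE 0.269, 95% interval -1.02 to 0.25, adjusted p = 0.465). Per 1000 CPM of macrophage markers, the log2 difference of Inhba was 0.17 (exact two-sided permutation test, p = 0.8), where Inhba itself had a negative one.

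**Figure D2:**
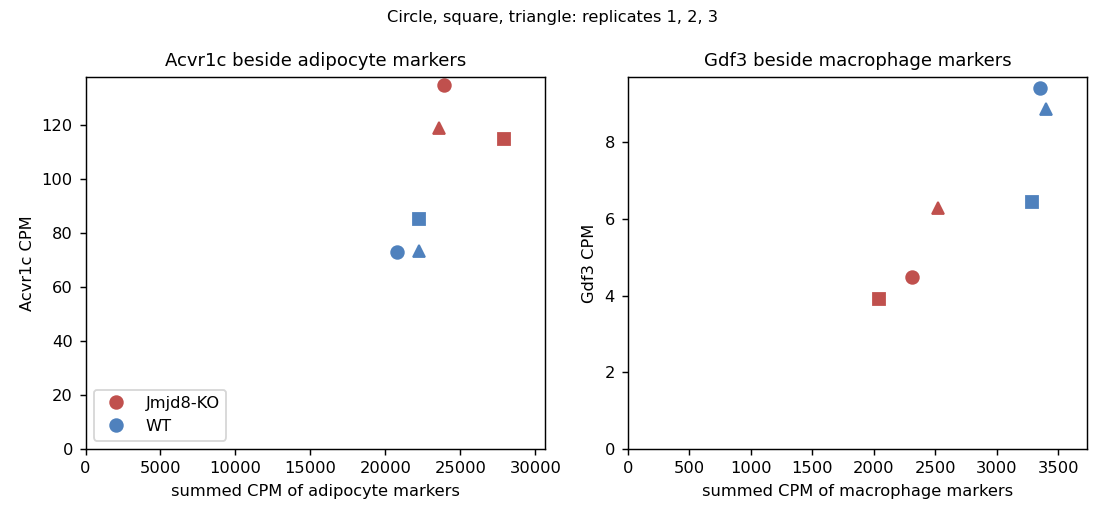
CPM of Acvr1c against the summed CPM of adipocyte markers (left) and of Gdf3 against the summed CPM of macrophage markers (right), with 1 point per mouse and linear axes from 0. The Jmjd8-KO mice lie above the WT mice for Acvr1c, while Gdf3 and the macrophage markers are both lower in the Jmjd8-KO mice.

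The type II receptor genes did not pass. Acvr2a, whose protein binds activins and related ligands, was at 29.4, 25.05 and 27.0 CPM in the Jmjd8-KO mice and 35.6, 33.8 and 36.0 CPM in the WT mice. All Jmjd8-KO mice were below all WT mice, opposite to Acvr1c. The log2 fold change was -0.37 (SE 0.0903, 95% interval -0.59 to -0.16, adjusted p = 0.0923). It passed without Jmjd8-KO replicate 2 (-0.32, adjusted p = 0.0426), where 9.34% of tested genes passed. Acvr2b, a type II receptor of the same ligands, was at 9.59 to 11.8 CPM in the Jmjd8-KO mice and 10.4 to 12.5 CPM in the WT mice, with overlap (log2 fold change -0.12, SE 0.131, 95% interval -0.43 to 0.19, adjusted p = 0.631). Acvr2a shares part of its locus with Orc4 on the other strand, and no source used here gives the strand setting of the counts. Orc4 had 645 to 870 counts, against 464 to 722 for Acvr2a, so in the overlap the reads of these genes cannot be told apart.

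Neither antagonist gene passed. Fst, the follistatin gene, was at 13.6, 13.9 and 15.0 CPM in the Jmjd8-KO mice and 19.4, 16.3 and 17.6 CPM in the WT mice. The groups did not overlap, with every Jmjd8-KO value below WT, and the log2 fold change was -0.33 (SE 0.106, 95% interval -0.58 to -0.079, adjusted p = 0.164). Fstl3, the gene of a follistatin-like protein that also binds activins, was at 36.5, 32.6 and 39.3 CPM in the Jmjd8-KO mice and 29.6, 35.7 and 33.5 CPM in the WT mice. Its groups overlapped (log2 fold change 0.13, SE 0.109, 95% interval -0.12 to 0.39, adjusted p = 0.528). The Prss57 gene, on the other strand, overlaps Fstl3 and had 336 to 496 counts, against 599 to 704 for Fstl3, so where they overlap the reads of these genes cannot be told apart.

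Smad3 and Smad7 did not pass. Smad3, the signal carrier, was at 46.4, 46.5 and 49.5 CPM in the Jmjd8-KO mice and 48.3, 54.7 and 50.4 CPM in the WT mice. These ranges overlapped, and the 95% interval of the log2 fold change was the narrowest of the 10 genes, -0.29 to 0.078 (estimate -0.11, SE 0.0787, adjusted p = 0.482). Smad7, the inhibitory Smad and itself a target of the pathway, was at 11.02, 18.7 and 10.9 CPM in the Jmjd8-KO mice and 15.7, 13.4 and 12.3 CPM in the WT mice. As with Inhbb, Jmjd8-KO replicate 2 was above all WT mice and the other Jmjd8-KO mice were below them. The log2 fold change of Smad7 was -0.028 (SE 0.229, 95% interval -0.57 to 0.51, adjusted p = 0.954), and -0.33 without that library (adjusted p = 0.142).

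**Figure D3:**
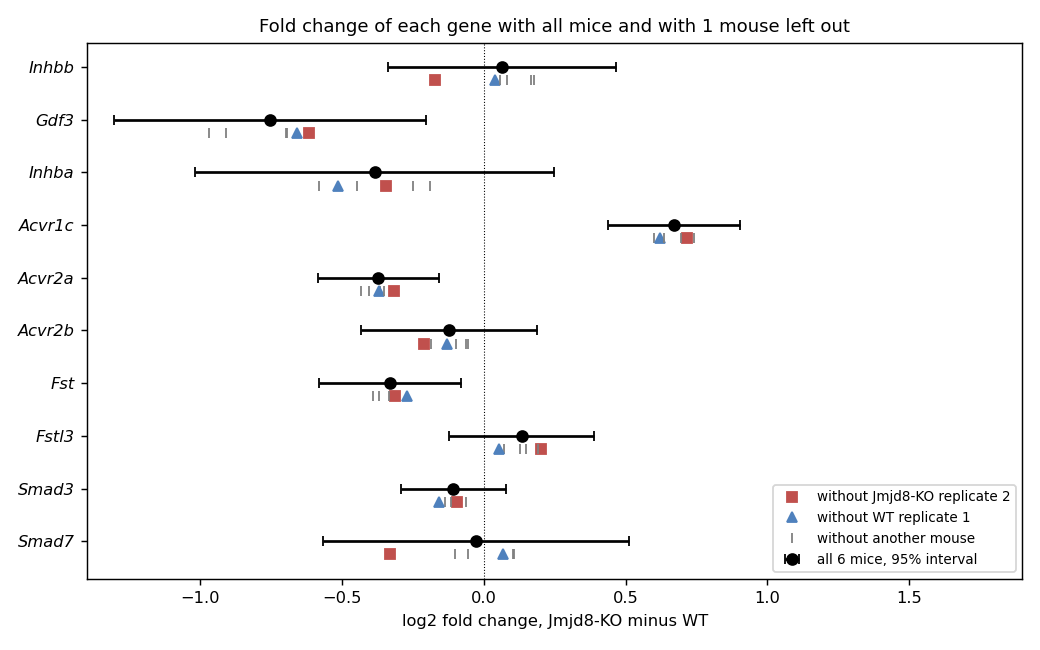
Log2 fold change of each gene, Jmjd8-KO minus WT, with its 95% interval from all 6 mice (black) and the estimates with 1 mouse left out (blue triangle, without WT replicate 1; red square, without Jmjd8-KO replicate 2; grey ticks, without another mouse). Estimates for Acvr1c stay between 0.60 and 0.74, and those for Inhbb and Smad7 lie on both sides of 0.

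Levels of different genes were compared per kilobase, in the RPKM values deposited by the authors. In WT fat the order was Inhbb at 25.6 ± 0.566 RPKM, Fstl3 at 15.9 ± 1.30, Smad3 at 9.50 ± 0.481, Acvr1c at 8.06 ± 0.629, Fst at 5.88 ± 0.587, Acvr2a at 5.85 ± 0.265, Gdf3 at 3.68 ± 0.750, Smad7 at 2.94 ± 0.393, Acvr2b at 1.02 ± 0.0856 and Inhba at 0.310 ± 0.0693 RPKM (mean, n = 3; ± SD). Neighbours whose ranges overlapped were Fst with Acvr2a and Gdf3 with Smad7. In Jmjd8-KO fat Acvr1c, at 12.3 ± 1.05 RPKM, stood above Smad3 at 8.43 ± 0.348 RPKM, and the ranges of these genes did not overlap in either group. Gdf3, at 2.08 ± 0.535 RPKM, had a mean below the 2.75 ± 0.891 RPKM of Smad7 in Jmjd8-KO, with overlapping ranges. The other means there were 25.6 ± 6.62 RPKM for Inhbb, 16.7 ± 1.64 for Fstl3, 4.48 ± 0.253 for Fst, 4.32 ± 0.356 for Acvr2a, 0.894 ± 0.0931 for Acvr2b and 0.226 ± 0.0521 for Inhba, and the ranges of Fst and Acvr2a overlapped.

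**Figure D4:**
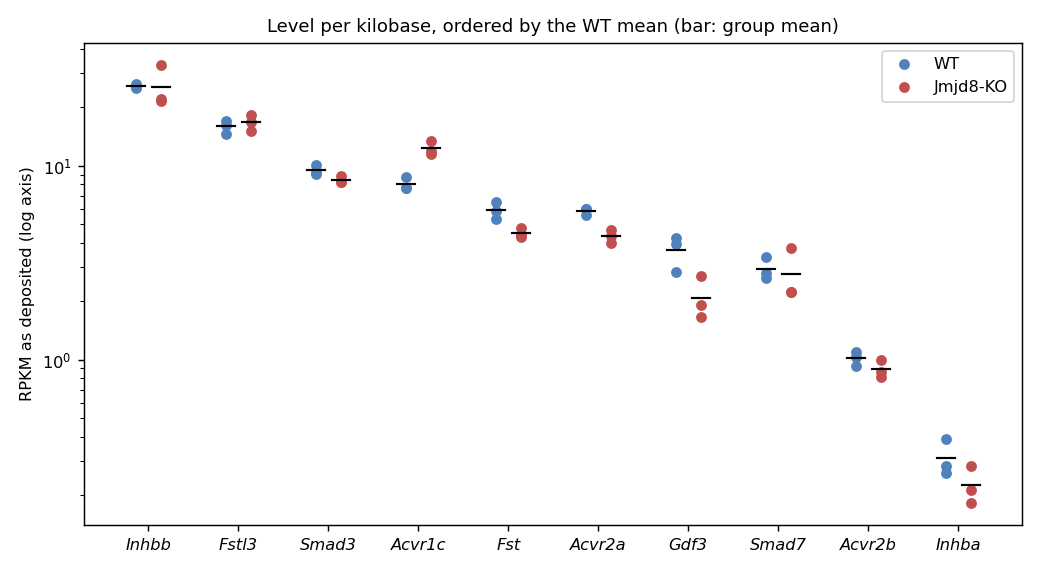
RPKM of the 10 genes as deposited, on a log axis, ordered by the WT mean; points are mice and bars are group means. Inhbb is highest and Inhba lowest in both groups, and Acvr1c lies below Smad3 in WT and above it in Jmjd8-KO.

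Between the inhibin beta chains, the activin B chain was the more abundant by far: the RPKM of Inhbb was 67.5 to 156 times that of Inhba across the 6 mice. The ratio of Acvr1c to Acvr1b, the gene of ALK4, chosen for its role as the other activin type I receptor, was 1.18, 0.988 and 1.03 in the Jmjd8-KO mice and 0.653, 0.816 and 0.688 in the WT mice. Acvr1b itself was at 41.3 to 42.1 CPM in the Jmjd8-KO mice and 37.8 to 40.4 CPM in the WT mice without overlap, but did not pass (log2 fold change 0.10, SE 0.0697, adjusted p = 0.464). The ratio of Acvr1c to Acvr2a was 2.87, 2.88 and 2.77 in the Jmjd8-KO mice and 1.28, 1.58 and 1.28 in the WT mice. Both ratios separated the groups. For Acvr1c to Acvr2a this had to follow, since the groups of each gene did not overlap and differed in opposite directions. The separation of Acvr1c to Acvr1b also followed from the gap in Acvr1c. Acvr1b ranged only from 10.8 to 11.8 RPKM over all mice, while Acvr1c was at 11.4 to 13.4 RPKM in Jmjd8-KO and 7.69 to 8.79 RPKM in WT. Fstl3 was 3.44 to 3.93 times Fst in the Jmjd8-KO mice and 2.23 to 3.20 times in the WT mice.

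The levels of Acvr2b and Fst depend on the gene models. The length implied by the deposited values was 11530 bases for Acvr2b, against 3928 bases of exon in GENCODE release M21, and 3093 against 4589 bases for Fst. With GENCODE lengths Acvr2b would have a WT mean of 2.99 RPKM, still below the 3.13 of Smad7, and Fst one of 3.97 RPKM, below the 6.32 of Acvr2a. In Jmjd8-KO Acvr2b would be at 2.62 RPKM, above the 1.98 of Gdf3. For the other 8 genes the implied length was 0.864 to 1.08 times the GENCODE length.

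The other members lie at separate loci of GRCm38. Inhbb is on chromosome 1 at 119415465-119422248 (minus strand), Inhba on chromosome 13 at 16011851-16031621 (plus strand) and Gdf3 on chromosome 6 at 122605403-122610087 (minus strand). Acvr2a is on chromosome 2 at 48814109-48903269 (plus strand) and Acvr2b on chromosome 9 at 119402118-119434995 (plus strand). Fst is on chromosome 13 at 114452290-114458951 (minus strand), Fstl3 on chromosome 10 at 79777272-79782630 (plus strand) and Smad3 on chromosome 9 at 63646767-63757994 (minus strand), and Smad7 is on chromosome 18. The table holds 1 count per gene and library, so no value belongs to a single exon or transcript.

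In 6 further lists of the wider pathway, 1 gene passed: Bhlhe40, a transcriptional repressor of the Smad3-responsive list, which fell. Genes named below come from those that passed and the 3 with the smallest p in each list. Smad7 and Skil belong to more than 1 list. Of 16 other ligands of the superfamily, 13 were tested and 0 passed (median log2 fold change -0.077; 4 at an unadjusted p under 0.05). In this list and those that follow, the shares of all genes to read beside such counts are 19.1% at an unadjusted p under 0.05, 7.43% called by DESeq2, 14.2% by limma-voom and 9.34% by edgeR without Jmjd8-KO replicate 2. DESeq2 called 0 of the ligands higher and 3 lower, and limma-voom 1 higher and 3 lower. In edgeR 1 ligand was higher and 3 were lower without Jmjd8-KO replicate 2. Gdf15, a stress-induced hormone, had -0.93 (SE 0.195, adjusted p = 0.0662), Tgfb1, the gene of TGF-beta 1, -0.37 (SE 0.0830, adjusted p = 0.0751) and Mstn, the gene of myostatin, -0.95 (SE 0.240, adjusted p = 0.0995). In all of these, every Jmjd8-KO value was below WT. Gdf1, a ligand with known expression in brain, was singled out after its values were seen: it had 153 counts in WT replicate 1, the library high in neuronal markers, and 9 to 22 in the other libraries (log2 fold change -2.13, SE 0.979, adjusted p = 0.292). Nodal, another ligand of ALK7, and its co-receptor genes Tdgf1 and Cfc1 had at most 3 counts in any library and were not tested.

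Of 14 other receptors and co-receptors 12 were tested and 0 passed (median 0.011; 2 at an unadjusted p under 0.05). DESeq2 called 1 higher, and limma-voom 1 higher and 1 lower. In edgeR 1 was lower without Jmjd8-KO replicate 2. Acvr1, the gene of the type I receptor ALK2, differed by 0.31 on the log2 scale (SE 0.0821, adjusted p = 0.108), Tgfbr1, the gene of the TGF-beta type I receptor ALK5, -0.36 (SE 0.103, adjusted p = 0.131) and Amhr2, the receptor of anti-Mullerian hormone, 0.68 (SE 0.322, adjusted p = 0.302). Amhr2 was at 3.74, 7.49 and 3.66 CPM in the Jmjd8-KO mice and 3.55, 2.59 and 3.17 CPM in the WT mice. Without Jmjd8-KO replicate 2 its estimate was 0.25 (edgeR, adjusted p = 0.448). The genes of the related type I receptors ALK2, ALK4 and ALK5 did not pass, with estimates between -0.36 and 0.31, below the 0.67 of Acvr1c; these differences were not tested. Of 16 other extracellular inhibitors and binding proteins 12 were tested and 0 passed, with 10 positive and 2 negative log2 fold changes (median 0.32; 6 at an unadjusted p under 0.05). DESeq2 called 3 of them higher and limma-voom 5, with 0 lower, and edgeR without Jmjd8-KO replicate 2 called 1 higher. Wfikkn2, an antagonist of myostatin, had 0.87 (SE 0.200, adjusted p = 0.0813) and Ltbp1, which holds latent TGF-beta in the matrix, 0.31 (SE 0.0832, adjusted p = 0.117).

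Of 16 other Smads and their partners 15 were tested and 0 passed (median 0.10; 6 at an unadjusted p under 0.05). DESeq2 called 2 lower, and limma-voom 2 higher and 2 lower. Tgif1, a corepressor of Smads, was at 12.3, 7.34 and 12.8 CPM in the Jmjd8-KO mice and 21.9, 18.2 and 22.2 CPM in the WT mice, a log2 fold change of -0.94 that did not pass (SE 0.216, adjusted p = 0.0790). Smad9, a Smad of the bone morphogenetic protein branch, had 0.79 (SE 0.194, adjusted p = 0.0947) and Nedd4l, a ubiquitin ligase of active SMAD2 and SMAD3, -0.51 (SE 0.136, adjusted p = 0.115). Without Jmjd8-KO replicate 2, Tgif1 (-0.73, adjusted p = 0.0164) and Nedd4l (-0.36, adjusted p = 0.0162) were the 2 genes of this list that passed.

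Genes known to respond to Smad3 did not move one way. Of 17 tested, 1 fell and 0 rose, with 8 positive and 9 negative log2 fold changes (median -0.028). Bhlhe40 was at 26.8, 25.3 and 32.6 CPM in the Jmjd8-KO mice and 48.1, 42.7 and 43.8 CPM in the WT mice. The groups were well apart, with means of 28.2 ± 3.86 and 44.9 ± 2.85 CPM (SD, n = 3 each; log2 fold change -0.67, SE 0.115, adjusted p = 0.0417). Of the leave-outs of 1 mouse, its call held without Jmjd8-KO replicate 2 (adjusted p = 0.0222) and was lost without Jmjd8-KO replicate 1 (0.160) or 3 (0.0714) and without WT replicate 1 (0.131), 2 (0.133) or 3 (0.186). Pmepa1, a feedback inhibitor of Smad signalling, had a positive estimate of 0.26 (SE 0.0665, adjusted p = 0.0994). Without Jmjd8-KO replicate 2, 2 genes of this list rose and 3 fell, and without WT replicate 1, 0 passed (5 at an unadjusted p under 0.05, against 13.2% of tested genes). With all mice DESeq2 called 1 higher and 2 lower, and limma-voom 2 higher and 4 lower.

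Adipocyte genes linked to ALK7, those of lipolysis, of fat cell identity and of the factors that ALK7 signalling is reported to lower in mouse adipocytes, did not pass either. Of 13 tested, 0 passed, with 10 positive and 3 negative log2 fold changes (median 0.33; 8 at an unadjusted p under 0.05), and 4 of its genes are also among the adipocyte markers above. Adrb3, the beta-3 adrenergic receptor that starts lipolysis, was at 418, 654 and 425 CPM in the Jmjd8-KO mice and at 217, 295 and 255 CPM in the WT mice. Every Jmjd8-KO mouse was above WT, with the highest value in replicate 2, and the log2 fold change of 0.97 did not pass (SE 0.200, adjusted p = 0.0649). Lipe, the hormone-sensitive lipase, had 0.35 (SE 0.0837, adjusted p = 0.0870) and Adipoq, the hormone adiponectin, 0.43 (SE 0.107, adjusted p = 0.0955). Without Jmjd8-KO replicate 2, 4 genes of this list rose, Adrb3 (0.72, adjusted p = 0.0204) and Lipe (0.37, adjusted p = 0.0401) among them, and without WT replicate 1, 0 passed (7 at an unadjusted p under 0.05, against 13.2% of tested genes). With all mice DESeq2 called 5 higher, and limma-voom 7 higher and 1 lower.

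**Figure D5:**
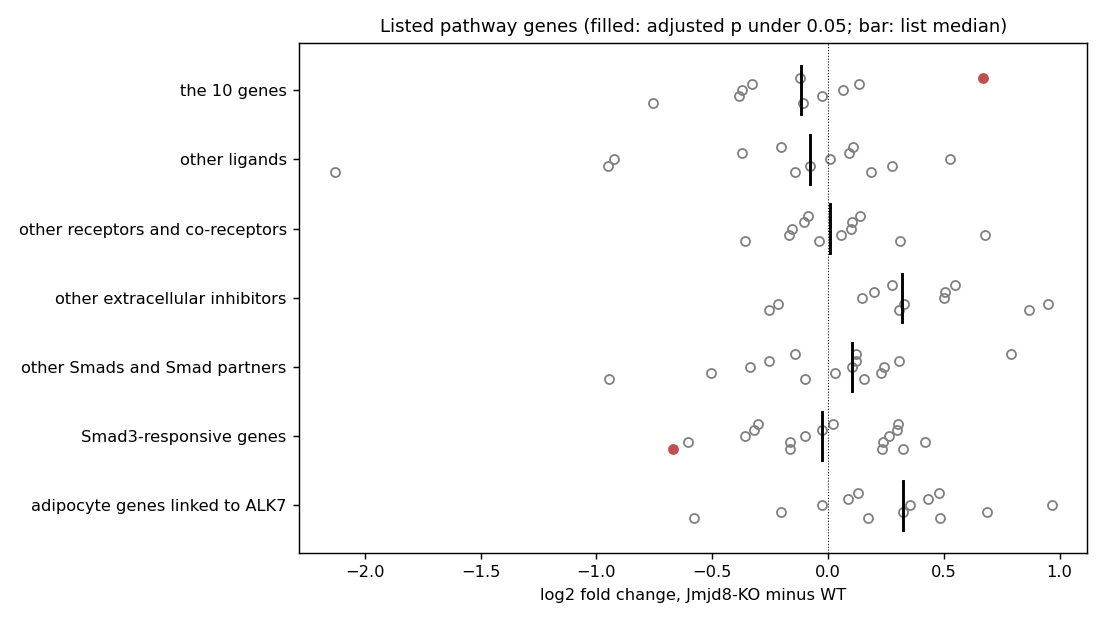
Log2 fold change, Jmjd8-KO minus WT, of every tested gene in the 10 genes and in 6 further lists, 1 point per gene; filled points had an adjusted p under 0.05 and bars are list medians. Acvr1c (0.67) and Bhlhe40 (-0.67) are the filled points, and medians lie between -0.12 and 0.33.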

How the data were processed

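The authors deposited 1 table with a raw count and an RPKM value per gene for each of 6 mice, 3 per genotype. The submitters' processing notes name STAR, featureCounts and the mm10 build. No source used here gives tool versions, gene annotation or strand setting. The count columns were deposited unnormalized, per the file headers; the RPKM columns, scaled by the authors per kilobase and library size, were used for levels between genes and were not tested.

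Genes were kept by filterByExpr with a minimum count of 10, scaled by TMM and tested with edgeR 4.0.16 in R 4.3.3 (quasi-likelihood, genotype as the only term). Benjamini-Hochberg adjustment ran over all 14322 tested genes, with a threshold of 0.05. Differences on the log2 scale subtract WT from Jmjd8-KO, with 95% intervals from the quasi-likelihood t distribution. Alternatives used DESeq2 1.42.0, limma 3.58.1, other scalings and filters, and left out mice.

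The 10 members and all lists were chosen with earlier results of these data known. Named genes are the members, the genes of each list that passed or had the 3 smallest p, and the 5 genes most correlated with Acvr1c (log2 CPM with a prior count of 2); Acvr1b was added for its role. Some genes that this rule names are not reported here. The series' design text gives 1 mouse per sample. Among the 10 members, counts per library were lowest for Inhba (22 to 52) and Gdf3 (78 to 191), where counting error weighs most. Acvr2b (165 to 247), Smad7 (188 to 371) and Fst (258 to 393) followed. Other named genes had low counts per library too, among them Wfikkn2 (20 to 42), Smad9 (27 to 48), Mstn (46 to 146) and Gdf15 (49 to 130). Loci are from GENCODE release M21 and promoter windows from RefSeq, which held 7 of the 10 genes.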

Additional observations from a re-analysis of the deposited data

How the results depend on the processing

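With 3 mice a group, calls depended on single libraries. The number of genes called, 304 of those tested, was 156 with no filter, 1038 with DESeq2, 2030 with limma-voom and quality weights, 5 with the replicate block, 0 to 1351 with 1 mouse left out, and 2833 without WT replicate 1 and Jmjd8-KO replicate 2. Of the 10 members 1 was called, against 2 with DESeq2 and 2 with limma-voom (Acvr1c and Acvr2a each time). The number was 0 with the replicate block, 0 to 2 with 1 mouse left out, and 4 without both libraries. In that last fit 2833 of 14287 tested genes were called, and Inhbb (-0.19), Gdf3 (-0.52) and Acvr2a (-0.31) passed as lower beside Acvr1c. The log2 fold change of Acvr1c lay between 0.60 and 0.74 over 14 alternatives and passed in 8; with the replicate block it was 0.67 (adjusted p = 0.10). Same-numbered mice did not deviate together (correlations of -0.018, -0.029 and 0.0082). With 3 mice a group and an outlying library in each, this cannot show whether they were paired. The estimate for Inhbb was -0.015 with scaling by library size alone, -0.16 with limma-voom and -0.17 to 0.18 with 1 mouse left out, and that for Smad7 was -0.33 to 0.11 with 1 mouse left out; the cause was not tested. Leaving out 1 mouse gave log2 ratios of 0.37 to 0.59 for Acvr1c to adipocyte markers, 0.0014 to 0.38 for Inhba and -0.36 to -0.10 for Gdf3 to macrophage markers. Levels rescaled to GENCODE lengths, a choice added after seeing the data, moved by more than 1 SD in 8 of 20 group means. Leaving out libraries and using other tools for the 6 further lists were also added then. Among the 10 members depth limits Inhba most.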
